A study of Mus musculus with 14 samples.

Results

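The 10 genes described here, Trem2, Tyrobp, Apoe, Lpl, Fabp5, Plin2, Gpnmb, Cd63, Spp1 and Lgals3, are markers of lipid-associated and disease-associated macrophages. They were taken by gene symbol from a table of 19940 mouse genes, and each symbol matched 1 row. The table holds RNA sequencing of monocyte-derived macrophages, cells that enter the central nervous system from the blood, taken when experimental autoimmune encephalomyelitis, an induced paralytic disease used to model multiple sclerosis, was at its peak. Each library came from macrophages sorted from lethally irradiated hosts that had received bone marrow of both genotypes in equal numbers. The 7 mCAT libraries came from CD45.2 donor cells that were CCR2creERT2/+ and mcat lsl/wt, a mitochondrial catalase placed behind a stop that a Cre recombinase removes. The 7 wt libraries came from CD45.1 donor cells. All 14 libraries are labelled with tamoxifen, which activates this Cre. In this model Cre acts in cells that express Ccr2, both engineered alleles were heterozygous, and both genotypes developed in an irradiated host. The CD45 allele differs wherever the genotype differs, and the labels name the CCR2creERT2 allele for the mCAT donors only. The catalase, the Cre allele and the CD45 allele therefore cannot be told apart between the genotypes. The age and sex of the mice, the host strain and any pooling of animals are not stated in the labels used here.

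The library codes begin with C1 or C2, followed by a number that makes a stem such as C2_4 and by a letter that follows the genotype. Of 8 stems, 6 have a mCAT and a wt library, whereas wt 1 (stem C1_1) and mCAT 3 (stem C1_4) stand alone. Stems C1_2, C1_3 and C1_5 join mCAT 1 with wt 2, mCAT 2 with wt 3 and mCAT 4 with wt 4, and stems C2_1, C2_2 and C2_4 join the mCAT and wt libraries numbered 5, 6 and 7. There were 6 C2 libraries and 8 C1 libraries. The labels do not say what the codes stand for, so a host cohort, a day, a batch or another feature behind C1 and C2 cannot be told apart.

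Macrophages that clear lipid-rich debris such as myelin take up lipoproteins and membranes through receptors, degrade them in lysosomes, store fatty acids and cholesterol esters in droplets and export cholesterol on lipoproteins. TREM2 is a surface receptor for lipids and lipoproteins that signals through the adaptor TYROBP (DAP12). In mouse brain and adipose tissue, cells that depend on this receptor turn on a shared set of genes, among them Apoe, Lpl, Fabp5, Cd63, Spp1, Gpnmb and Lgals3.

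The promoters of 3 members whose levels moved together across the libraries, and of Plin2, which varied little, are printed so that the stretch before each start site can be compared. They are the 250 bases before the RefSeq start, 5′ to 3′ on the gene's strand, from build GRCm38.p6, which differs from the build GRCm39 named in the submitters' processing notes. Capitals mark matches to the motifs searched.
Gpnmb, chr6:49036268-49036517, plus strand: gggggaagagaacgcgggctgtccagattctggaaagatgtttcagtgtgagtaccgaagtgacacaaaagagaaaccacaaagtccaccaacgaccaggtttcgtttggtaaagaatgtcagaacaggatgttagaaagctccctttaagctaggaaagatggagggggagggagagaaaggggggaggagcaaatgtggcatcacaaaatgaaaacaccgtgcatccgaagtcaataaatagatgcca
Trem2, chr17:48346151-48346400, plus strand: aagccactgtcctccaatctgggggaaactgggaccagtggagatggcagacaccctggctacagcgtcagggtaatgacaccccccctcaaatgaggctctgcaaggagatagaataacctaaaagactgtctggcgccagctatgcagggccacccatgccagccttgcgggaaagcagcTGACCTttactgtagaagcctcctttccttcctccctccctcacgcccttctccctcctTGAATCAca
Apoe, chr7:19699189-19699438, minus strand: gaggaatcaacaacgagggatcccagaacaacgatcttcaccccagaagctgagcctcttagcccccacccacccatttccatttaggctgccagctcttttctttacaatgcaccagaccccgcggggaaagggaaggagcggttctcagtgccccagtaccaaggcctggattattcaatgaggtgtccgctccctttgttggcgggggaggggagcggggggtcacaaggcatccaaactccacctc
Plin2, chr4:86670060-86670309, minus strand: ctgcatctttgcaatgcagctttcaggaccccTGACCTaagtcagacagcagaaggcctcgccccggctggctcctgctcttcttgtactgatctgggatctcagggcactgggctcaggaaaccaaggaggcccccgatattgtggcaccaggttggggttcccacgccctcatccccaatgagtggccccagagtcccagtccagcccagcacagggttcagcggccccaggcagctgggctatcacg
RefSeq windows were found for 7 of the 10 members (10 windows), all but Tyrobp, Fabp5 and Lpl. Both strands were searched for 6 motifs, and the share of 32807 mouse windows of the same length that hold each is given with it. The E-box CACGTG was in 6.02% of windows and the M-box core CATGTG in 12.3%. The AP-1 motif TGANTCA was in 6.75%, the PU.1 motif GAGGAAGT in 2.44%, the nuclear receptor half-site AGGTCA in 14% and the TATA motif TATAAA in 12.4%. No match overlapped another in the windows printed. Trem2 held an AP-1 match that begins at position -9 and a half-site on the opposite strand at -68, counted from the start site. Plin2 held a half-site on the opposite strand at -218. The printed windows of Gpnmb and Apoe held none of the 6. Of the windows not printed, the second of 3 for Apoe held TATA matches on both strands, at -100 and -96, which overlap. The first of 2 for Spp1 held a PU.1 match at -113 and a TATA match at -211. A match is a description of letters and not of a bound site.

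Estimated depth was 27.8 to 46.45 M reads (M for mega) in mCAT libraries and 16.7 to 43.1 M in wt libraries, and the lowest value of any member in any library was 1126 normalised counts, for Lpl in mCAT 4. The number of genes with a normalised count of 10 or more was 11874 to 12780 per library. The normalised count is the deposited log2 value turned back into a count on a scale common to all libraries. Macrophage markers were abundant, as the labels give the cell type. Summed over 10 of them, normalised counts were 869400 to 3692000 in mCAT and 1002000 to 4599000 in wt libraries, and all 10 genes were tested. The library wt 1 stood apart from the other 13, at the low end of the first principal component and the high end of the second, and had the highest share of counts from mitochondrially encoded genes, 2.69%, against 0.402% to 1.46% in the rest. It was the lowest of the 14 libraries for Gpnmb, Trem2, Spp1, Lgals3, Fabp5, Cd63, Apoe and Plin2. The difference of Gpnmb between genotypes and the differences of the members between C2 and C1 are therefore also given without it, whereas correlations, SDs over 14 libraries, list genes and markers include it.

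Most of the members were among the most abundant transcripts of these macrophages. On a scale of normalised counts per kilobase of exon, averaged over 14 libraries, Apoe stood at 393300, the sixth highest of 12072 tested genes with a known length. Apoe encodes apolipoprotein E, the main lipoprotein component that macrophages secrete. Spp1 (osteopontin, a secreted phosphoprotein) followed at 157400 per kilobase, Tyrobp at 102200 and Lgals3 (galectin-3, a lectin that binds galactosides and marks damaged lysosomes) at 64020. Fabp5 (a carrier of fatty acids in the cytosol) stood at 28320, Gpnmb (a transmembrane glycoprotein of lysosomes and phagosomes) at 21720 and Plin2 (a coat protein of lipid droplets) at 20590 per kilobase. Trem2 (13280) and Cd63 (12500, a tetraspanin of late endosomes and lysosomes) had lower means. Lpl, which encodes the lipase that releases fatty acids from lipoproteins, was the lowest at 688, and 77.2% of the tested genes lay below it. In mCAT libraries the SD between libraries overlapped between neighbours among Apoe, Spp1, Tyrobp and Lgals3. In mCAT and in wt libraries it overlapped among Fabp5, Gpnmb, Plin2, Trem2 and Cd63. The order given within these sets is that of the means and is not resolved. Together the 10 genes took 2.22% to 6.20% of all normalised counts in mCAT libraries and 1.27% to 5.85% in wt libraries.

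**Figure D1:**
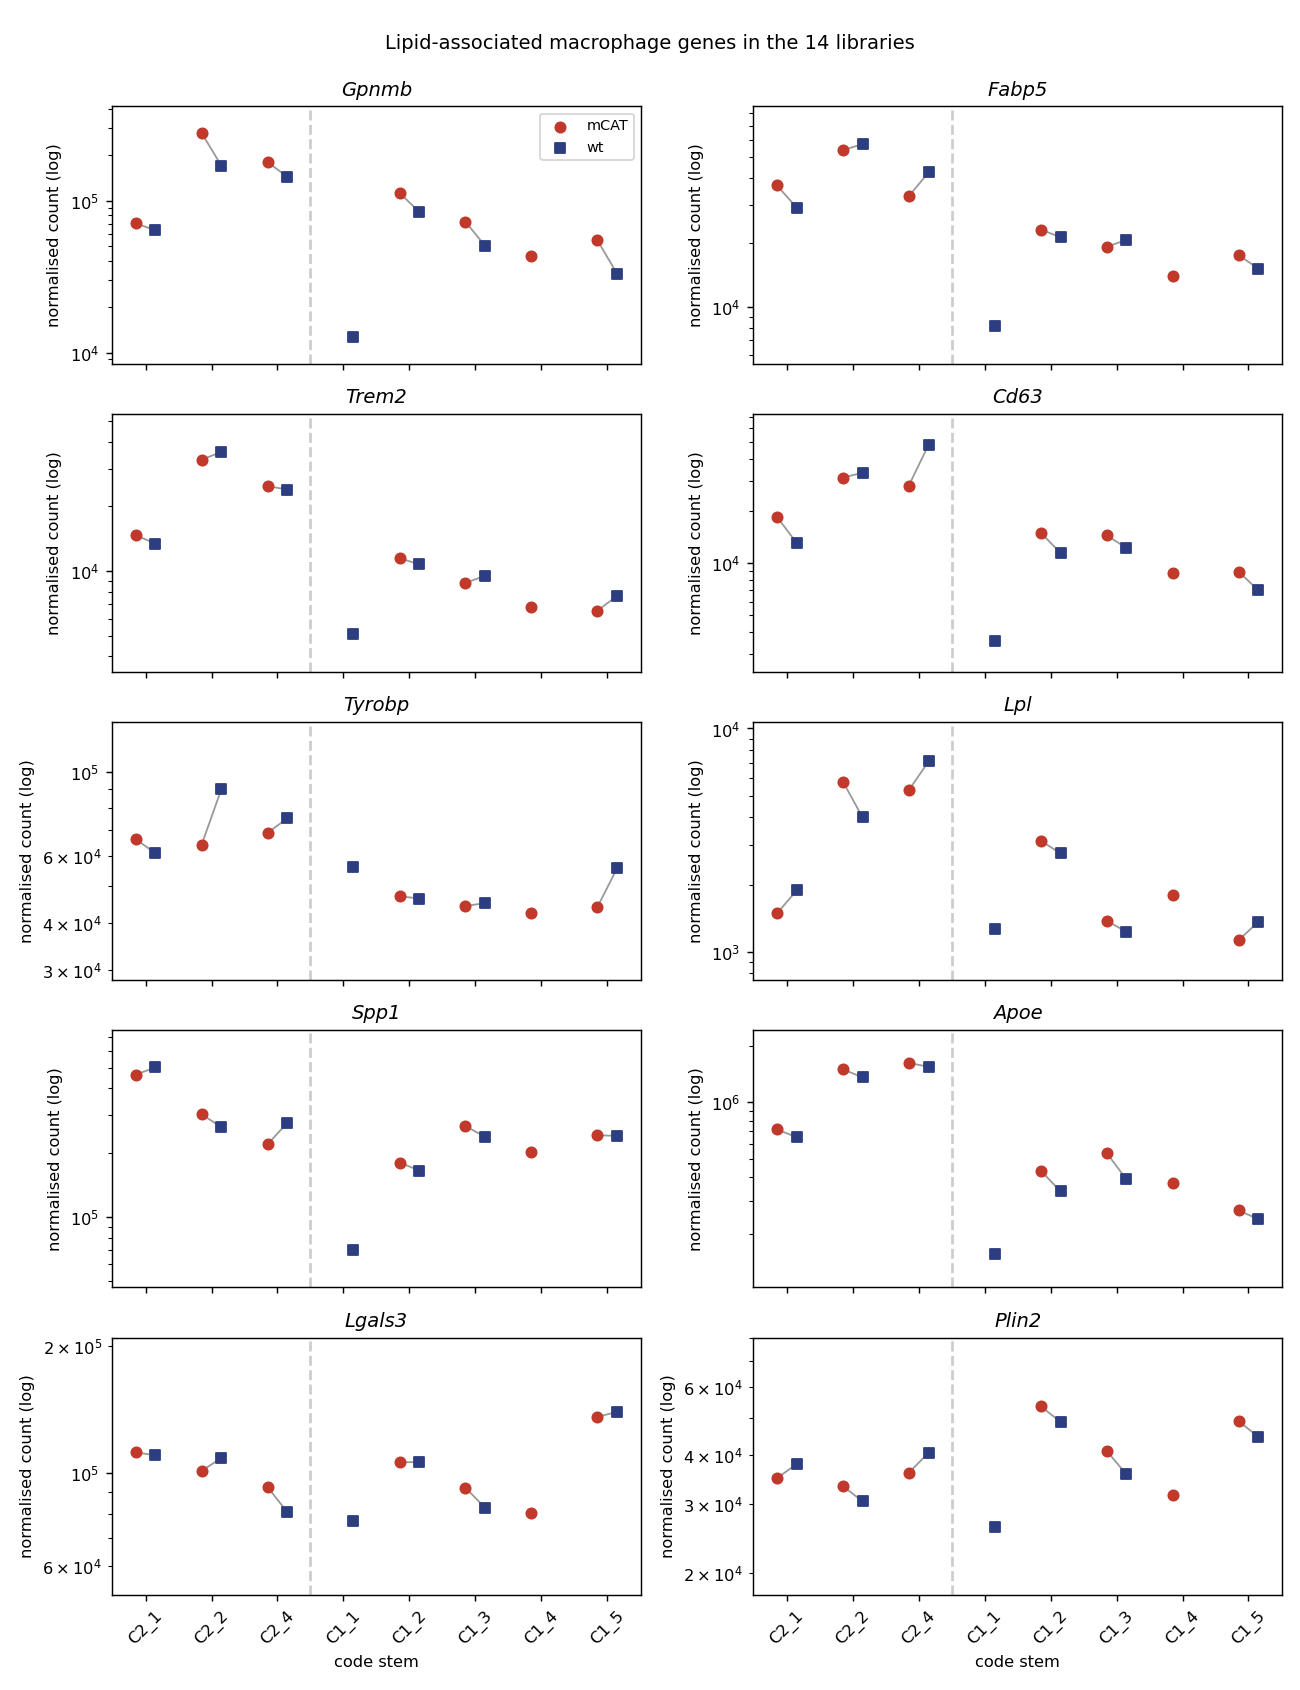
Normalised counts (log axis) of the 10 genes in the 14 libraries, by code stem, with mCAT as circles and wt as squares, joined where a stem has both; the dashed line separates C2 stems from C1 stems. Gpnmb lies higher in mCAT in each of the 6 joined stems, and every C2 library lies above every C1 library for Trem2, Tyrobp, Fabp5 and Apoe.

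The first comparison asked which of the genes differed between mCAT and wt macrophages. Gpnmb was higher in mCAT macrophages when each mCAT library was set against the wt library of its own stem, by 1.39-fold, and it was the only member called. Without pairing, none of the 10 members passed the test in limma, and none had an unadjusted p under 0.05. Gpnmb (ENSMUSG00000029816) had a lowest, median and highest normalised count of 43550, 72710 and 279300 in mCAT libraries, against 12620, 63840 and 170100 in wt libraries. The 2 genotypes overlapped over most of this range. The means were 116400 ± 85310 in mCAT and 79680 ± 57810 in wt libraries (SD, n = 7 each). The log2 difference was 0.67 (SE 0.54) with a fold of 1.59 and a 95% interval of 0.712 to 3.53 (limma, adjusted p = 0.886). The exact 2-sided permutation p, mCAT against wt, was 0.301. Without wt 1 the difference was 0.29. Within the C2 libraries alone it was 0.40 (SE 0.53) and within the C1 libraries alone 0.86 (SE 0.50), and neither was called. Of all 12096 genes tested, 0.198% were called in this comparison at an adjusted p under 0.05 (0.0827% higher and 0.116% lower in mCAT), and 5.37% had an unadjusted p under 0.05. In bulk samples such as these, fewer cells of a type and less RNA per cell cannot be told apart.

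Within stems the order of the genotypes was the same for Gpnmb each time. In the 3 C2 stems, Gpnmb had 71064 normalised counts in mCAT 5 against 63842 in wt 5, 279330 in mCAT 6 against 170110 in wt 6, and 180120 in mCAT 7 against 143470 in wt 7. In the 3 C1 stems it had 112920 in mCAT 1 against 84300 in wt 2, 72714 in mCAT 2 against 50385 in wt 3, and 54923 in mCAT 4 against 33025 in wt 4. The mCAT library was the higher one in 6 of 6 stems. The ratio ran from 1.11 in C2_1 to 1.66 in C1_5 with a median of 1.39. An exact sign-flip test over the 6 stems gave p = 0.0312, the smallest that 6 stems allow. With the stem as a block in limma, the log2 difference was 0.48 (SE 0.09; 95% interval 0.29 to 0.67) and the adjusted p was 0.0354 over 12096 genes. Of all genes tested, 0.314% were called in this fit, 0.165% higher and 0.149% lower in mCAT (9.24% at an unadjusted p under 0.05). The call rests on all but 1 of the stems: leaving out C1_2, C1_3, C1_5, C2_2 or C2_4 ended it, and without C2_1 it held. Over these 6 fits the difference ran from 0.43 to 0.54 and the adjusted p from 0.0182 to 0.201.

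Apoe had the same order in every stem but was not called. Its ratio of mCAT to wt was 1.10, 1.11 and 1.05 in stems C2_1, C2_2 and C2_4 and 1.29, 1.38 and 1.11 in C1_2, C1_3 and C1_5. The lower end of these ratios is close to no difference. An exact sign-flip test gave p = 0.0312 over the 6 stems, and the log2 difference of 0.22 (SE 0.08) had an adjusted p of 0.452. Gpnmb and Apoe, 2 of 10 members, were higher in mCAT in 6 of 6 stems, and 2.74% of all genes tested were. No member was lower in all 6. Their ratios differed most in stem C1_5, where Gpnmb was 1.66 times as high in mCAT as in wt and Apoe 1.11 times.

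The receptor and its adaptor showed no called difference between the genotypes. Trem2 (ENSMUSG00000023992) had a lowest, median and highest normalised count of 6537, 11480 and 33050 in mCAT libraries, against 5087, 10730 and 35870 in wt libraries. These ranges coincided almost fully. The means were 15180 ± 10100 in mCAT and 15170 ± 10950 in wt libraries (SD, n = 7 each). Within stems the log2 difference of Trem2 was -0.03 (SE 0.08), its fold had a 95% interval of 0.87 to 1.10, and mCAT was higher in 3 of 6. Tyrobp had 42520, 46980 and 69060 normalised counts in mCAT and 45060, 56110 and 90020 in wt libraries (lowest, median, highest). Its difference within stems was -0.14 (SE 0.09), with an interval of the fold of 0.793 to 1.04 and mCAT higher in 2 of 6.

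The lipid carriers, the lipase and the droplet coat protein were likewise not called. Fabp5 had 13960, 22980 and 53960 normalised counts in mCAT and 8160, 21200 and 57460 in wt libraries (lowest, median, highest). Lpl had 1126, 1803 and 5783 in mCAT and 1228, 1883 and 7124 in wt libraries. Plin2 had 31640, 36120 and 53470 in mCAT and 26250, 38040 and 48760 in wt libraries. In each of the 3 genes the genotypes overlapped over most of their range. Within stems the log2 differences were 0.02 (Fabp5, SE 0.10), -0.02 (Lpl, SE 0.12) and 0.05 (Plin2, SE 0.08). Their folds had 95% intervals of 0.878 to 1.17, 0.827 to 1.17 and 0.918 to 1.17. Folds within these intervals remain compatible with the values of the 6 stems.

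For Cd63, Spp1 and Lgals3, the pairs pointed both ways. Cd63 had 8787, 14980 and 31150 normalised counts in mCAT and 3538, 12230 and 48300 in wt libraries (lowest, median, highest). It was higher in mCAT in stem C2_1 (ratio 1.42) and in all 3 C1 stems (1.18 to 1.31) but not in C2_2 (0.935) or C2_4 (0.58). Its difference within stems was 0.10 (SE 0.14), with a 95% interval of the fold of 0.875 to 1.31. Spp1 had 180000, 241600 and 465000 in mCAT and 70290, 240000 and 501500 in wt libraries, and its difference within stems was 0.01 (SE 0.09). Lgals3 had 80480, 101200 and 135900 in mCAT and 76860, 106000 and 139500 in wt libraries, and its difference within stems was 0.04 (SE 0.08). Lgals3 was the least variable of the 10 genes across the libraries.

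**Figure D2:**
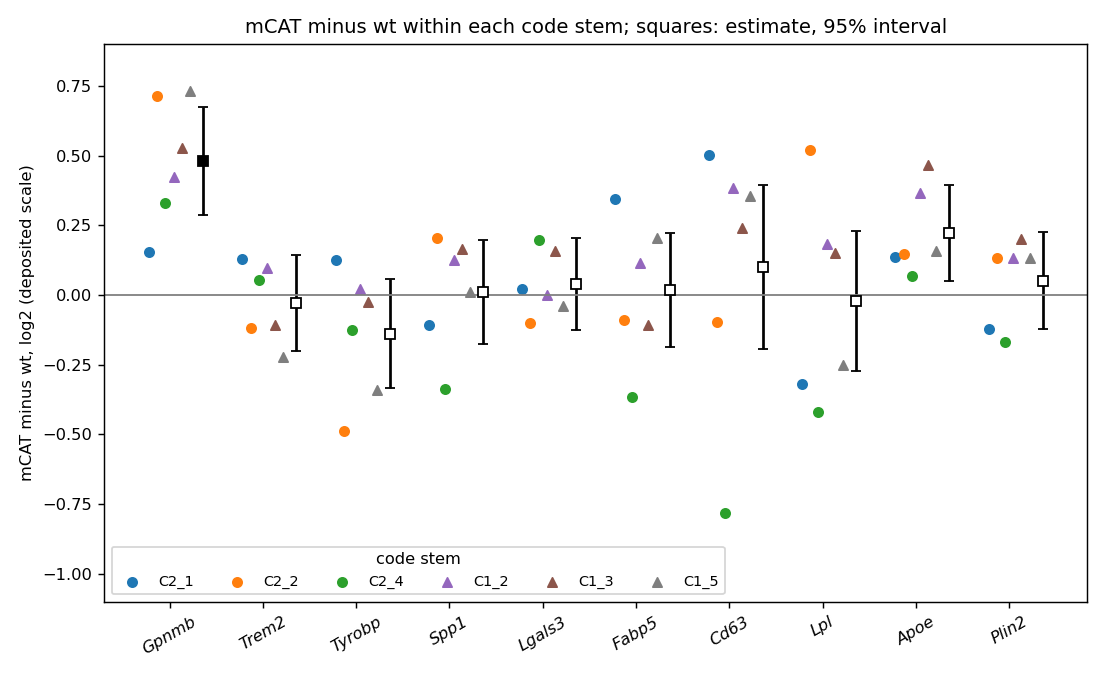
Difference between mCAT and wt within each of 6 code stems (points) on the deposited log2 scale for the 10 genes, with the estimate and its 95% interval (squares; filled where called). The 6 points of Gpnmb and the 6 of Apoe lie above 0, and the square of Gpnmb is the only filled one.

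The difference between genotypes was also compared between C2 and C1. None of the 10 members was called for a difference of this kind within stems, and of all 12096 genes tested 0% were (2.63% at an unadjusted p under 0.05; limma). No member had an unadjusted p under 0.05. Gpnmb differed by -0.16 (SE 0.19) and Apoe by -0.21 (SE 0.16) on the log2 scale. Cd63 had the lowest p among the members, with -0.45 (SE 0.26) and an adjusted p of 1 in limma.

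The second comparison set C2 libraries against C1 libraries, with the genotype as a covariate and the stem as a random block. Apoe, Trem2, Fabp5, Cd63 and Tyrobp were higher in C2 macrophages by 1.48-fold to 3.71-fold, so 5 of the 10 members were called, all in 1 direction. Of all genes tested 2.71% were called, 1.6% higher and 1.11% lower in C2 (17.1% at an unadjusted p under 0.05). Gpnmb, Lpl and Spp1 had values on the same side of 0 without passing the test, and Lgals3 and Plin2 lay near 0. The median log2 difference of the 10 members was 1.24, beside -0.01 over all genes tested, and 9 of 10 were above 0 beside 49% of all genes.

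Apoe differed the most. It had 652300, 1428000 and 1620000 normalised counts in C2 libraries, against 155400, 354100 and 537400 in C1 libraries (lowest, median, highest). Every C2 library lay above every C1 library. The log2 difference was 1.89 (SE 0.28), a fold of 3.71 with a 95% interval of 2.47 to 5.58 (limma, adjusted p = 0.00108).

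Trem2 and Tyrobp, receptor and adaptor, were both higher in C2. Trem2 had 13410, 24420 and 35870 normalised counts in C2 libraries, against 5087, 8230 and 11480 in C1 libraries. Tyrobp had 60920, 67750 and 90020 in C2 libraries, against 42520, 45700 and 56110 in C1 libraries. Neither gene's ranges overlapped, but the fold of Trem2 was the larger one. Trem2 differed by 1.53 (SE 0.24; 2.88-fold; adjusted p = 0.00176) and Tyrobp by 0.57 (SE 0.14; 1.48-fold; adjusted p = 0.0377).

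Fabp5 had 29070, 39710 and 57460 normalised counts in C2 libraries, against 8160, 18280 and 22980 in C1 libraries. These ranges were again separate, and the difference was 1.36 (SE 0.24; 2.56-fold; adjusted p = 0.00478). Cd63 had 13060, 29590 and 48300 in C2 libraries, against 3538, 10200 and 14980 in C1 libraries. Its ranges overlapped through wt 5 of stem C2_1, and its difference was 1.56 (SE 0.34; 2.95-fold; adjusted p = 0.0187). Of the 10 members, 4 had every C2 library above every C1 library, and 1.4% of all genes tested did (2.25% with separation in either direction).

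Gpnmb had a difference as large as that of Trem2 but a wider spread. It had 63840, 156800 and 279300 normalised counts in C2 libraries, against 12620, 52650 and 112900 in C1 libraries. Both libraries of stem C2_1 fell within the C1 range. The difference was 1.54 (SE 0.41; 2.91-fold, 95% interval 1.59 to 5.31; adjusted p = 0.0529). Lpl had 1484, 4642 and 7124 in C2 libraries against 1126, 1370 and 3147 in C1 libraries, with a difference of 1.12 (SE 0.33; adjusted p = 0.0828). Lpl too was at C1 levels in stem C2_1. Spp1 had 219200, 289900 and 501500 in C2 libraries against 70290, 220000 and 266300 in C1 libraries (0.85, SE 0.30; adjusted p = 0.138). Its highest stem was C2_1, the one in which Gpnmb and Lpl were low among C2 stems.

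Lgals3 and Plin2 did not follow the others. Lgals3 had 80640, 104800 and 111900 normalised counts in C2 libraries, against 76860, 99100 and 139500 in C1 libraries, and a fold of 1.03 with a 95% interval of 0.798 to 1.32. Plin2 had 30460, 35530 and 40640 in C2 libraries, against 26250, 42870 and 53470 in C1 libraries, and a fold of 0.911 with an interval of 0.704 to 1.18. For both genes the C2 libraries lay inside the C1 range.

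Taking the stem as the unit, exact 2-sided permutation tests of 3 C2 stems against 5 C1 stems gave p = 0.0179 for Trem2, Tyrobp, Fabp5 and Apoe, the smallest that 8 stems allow. Cd63 had p = 0.0357, Gpnmb and Spp1 p = 0.0536 and Lpl p = 0.0714 in the same exact test, while Plin2 and Lgals3 were at 0.714 and 0.75. Within mCAT libraries alone Apoe, Trem2 and Fabp5 were called, and within wt libraries alone none was, with differences of 1.66 for Gpnmb and 1.43 for Fabp5. Trem2 and Apoe remained called whichever library or stem was left out. Fabp5 lost its call without stem C2_2 (adjusted p = 0.0935). Cd63 lost it without wt 6 or without stem C1_5, C2_2 or C2_4 (adjusted p up to 0.212), and Tyrobp in 15 of 22 such fits (up to 0.281). Gpnmb was called without wt 2, mCAT 5, stem C1_2 or stem C2_1, with an adjusted p of 0.00583 to 0.414 over the 22 fits. The 22 fits hold those without wt 1 and without mCAT 3 again as stems C1_1 and C1_4, which have no other library. Leaving out stem C2_2 left 2 members called and leaving out C2_1 gave 7, whereas leaving out wt 1 left the same 5. Without wt 1 the difference was 1.72 for Apoe, 1.399 for Trem2, 1.16 for Fabp5, 1.31 for Cd63, 0.60 for Tyrobp, 1.21 for Gpnmb, 1.06 for Lpl, 0.58 for Spp1, -0.0355 for Lgals3 and -0.25 for Plin2. Under quantile normalisation Tyrobp lost its call (adjusted p = 0.072), and the difference of Apoe was 1.19 and still called (adjusted p = 0.00496).

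**Figure D3:**
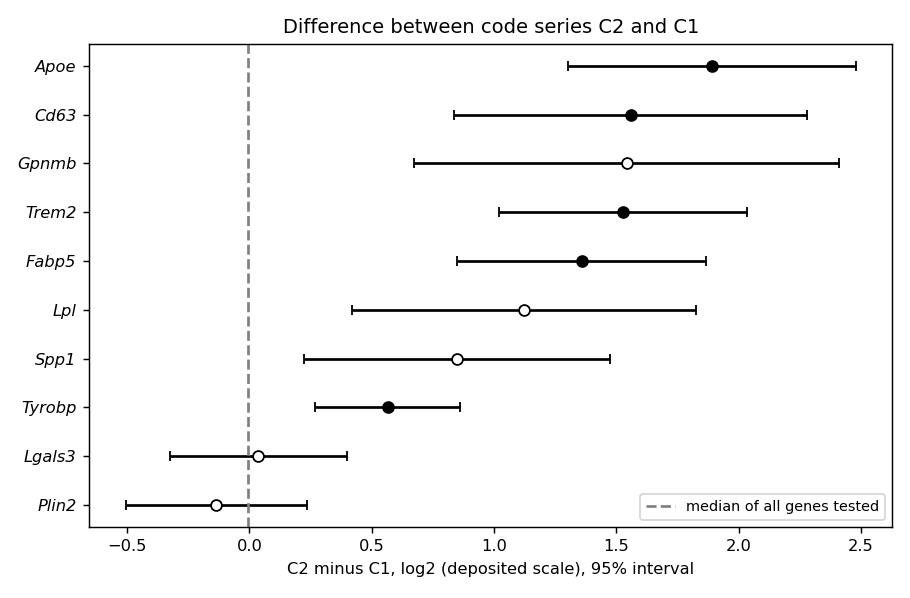
Difference between C2 and C1 libraries on the deposited log2 scale for the 10 genes, with 95% intervals; filled points were called, and the dashed line is the median of all genes tested. Apoe has the highest value at 1.89 and Lgals3 and Plin2 lie at 0.04 and -0.13.

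Over the 12 libraries of the 6 complete stems, nearly all variance of the members lay between stems. The share between stems was 99.3% for Trem2, 98.2% for Apoe, 96.4% for Fabp5 and for Lpl, and 85.3% for Tyrobp, the lowest of the 10, beside 65.5% for the median gene. The share that followed the genotype was 7.84% for Gpnmb, 4.41% for Tyrobp, 1.30% for Apoe and 0.0329% for Trem2, beside 3.83% for the median gene. Over all 14 libraries the SD of the log2 values was 1.14 for Gpnmb and 1.10 for Apoe, each larger than in 99.6% of the genes tested. Lgals3 (0.27) and Plin2 (0.29) were no more variable than the median gene (0.29).

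The members formed a block of genes that varied together and a remainder that did not. Pearson correlations of log2 values over the 14 libraries are given as a description, since libraries of 1 stem are not independent and all share the C2 to C1 contrast. Trem2 correlated with Fabp5 at 0.955, with Apoe at 0.947, with Cd63 at 0.923 and with Gpnmb at 0.894. Trem2 and Tyrobp correlated at 0.797. Lgals3 and Plin2 correlated with each other at 0.55 and with Trem2 at -0.00025 and -0.15. Spp1 lay between, at 0.659 with Fabp5 and 0.123 with Lpl.

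Outside the list, the genes whose pattern was most like Gpnmb were Gpr157 (r = 0.987), Nceh1 (0.976, a cholesterol ester hydrolase), Ctsd (0.975, the lysosomal protease cathepsin D), Lamp1 (0.967, a lysosomal membrane protein) and Lipa (0.966, lysosomal acid lipase). For Trem2 they were Syngr1 (0.987), Gdf15 (0.983) and Ang (0.981). For Apoe they were the complement genes C1qb (0.985), C1qc (0.983) and C1qa (0.979). Fabp5 was closest to Syngr1 (0.977), Ang (0.955) and Apobec1 (0.954), and Cd63 to Pon3 (0.97), Ctsd (0.965) and Rcbtb2 (0.964). Lpl was closest to Fcgrt (0.966), which encodes the neonatal Fc receptor, Znrf3 (0.946) and Hacd4 (0.944). Tyrobp was closest to the ribosomal protein genes Rps28 (0.964) and Rpl6 (0.959) and the pseudogene Rpl10-ps3 (0.958). Spp1 reached 0.907 with Tspan17, 0.905 with Mcfd2 and 0.88 with Tagap. Plin2 reached 0.936 with Chst12, 0.934 with Ergic1 and 0.932 with Rexo2. Lgals3 did not exceed 0.89, with Mrps23, followed by Tceanc2 (0.869) and Naa80 (0.867).

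Genes that work with the members were taken from 11 lists holding 188 genes outside the 10, of which 165 were tested. Between the genotypes none of the 165 was called without pairing (limma; 8 at an unadjusted p under 0.05), and 2 were within stems (29 at an unadjusted p under 0.05), or 1.21% beside 0.314% of all genes. Cadm1, an adhesion molecule of the disease-associated microglia list, was higher in mCAT in 6 of 6 stems, with 239 ± 192 normalised counts in mCAT and 48.2 ± 36.4 in wt libraries (SD, n = 7 each; 1.21 within stems, adjusted p = 0.000286). Fabp7, another fatty acid carrier, was lower in mCAT in 6 of 6 stems, with 63.9 ± 32.8 in mCAT and 163 ± 64.7 in wt libraries (-0.74, adjusted p = 0.0112). Both are genes of low level here.

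In the other lists the genes of lowest p within stems are given as values, since none passed the test. In the list of 26 lipid-associated macrophage genes, Ctsb (cathepsin B) differed by 0.28 and Grn (progranulin, a lysosomal glycoprotein precursor) by 0.29, both higher in mCAT in 6 of 6 stems with adjusted p of 0.377 and 0.452. In TREM2 signalling they were Ms4a4a (0.31) and Adam17 (0.32), a protease that sheds TREM2. Among targets of the MITF and TFE factors they were Gla (0.26) and the factor gene Tfec (-0.15), and among genes of PPAR and LXR regulation Pltp (0.31) and Srebf1 (0.39). Lipid droplet genes had Fitm2 (0.33) and Bscl2 (0.17). Partners of lipoproteins had Sdc1 (0.39, adjusted p = 0.127) and Lmf2 (0.31), a relative of the factor that matures lipoprotein lipase. Galectins and their partner had Lgals3bp (0.39, adjusted p = 0.223) and Lgals1 (-0.21), tetraspanins Tspan33 (-0.42) and Cd82 (0.22), and osteopontin receptors Cd44 (0.27) and Itgb1 (0.28). Tspan33 was near the floor, with means of 7.38 normalised counts in mCAT and 21.05 in wt libraries. The median difference of the 26 lipid-associated macrophage genes within stems was 0.08 and that of the 18 PPAR and LXR genes 0.20, beside -0.00085 over all genes tested.

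Between C2 and C1, 18 of the 165 list genes were higher and 5 lower, or 13.9% beside 2.71% of all genes tested. Of the 26 lipid-associated macrophage genes, 4 were higher in C2 and 1 lower, with a median of 0.43. Fabp4, a fatty acid carrier, had 890 ± 534 normalised counts in C2 and 103 ± 50.9 in C1 libraries (SD, n = 6 and 8; 2.14, adjusted p = 0.00133). Ctsd (1.25), the cholesterol exporter Abca1 (0.83) and Creg1 (0.92) were also higher, while Anxa2 (-0.76), an annexin, was lower. Anxa2 was the fifth called gene of this list by p and was named after its value was seen. Of 20 disease-associated microglia genes, Timp2 (1.99), Igf1 (2.13) and Cadm1 (0.84) were higher and the chemokine gene Ccl6 (-1.05) lower. Igf1, a growth factor gene, stood at 490 ± 282 in C2 and 31.9 ± 15.3 in C1 libraries.

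Of the receptor's signalling partners, 1 was called higher and 1 lower in C2, beside 1.6% and 1.11% of all genes tested. Of 21 tested TREM2 signalling genes, Lat2 (0.47), an adaptor, was higher and Trem1 (-1.31), a related receptor that also pairs with TYROBP, was lower, and the median was -0.06. Trem1 had 7419 ± 3141 normalised counts in C2 and 17790 ± 2876 in C1 libraries (adjusted p = 0.00391). Of 23 MITF and TFE lysosomal genes, Ctsf (0.94) and Hexa (0.80) were higher and Tfec (-0.61) lower, with a median of 0.30.

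Among partners of lipoproteins, the neighbours of Apoe in its gene cluster moved with it. Apoc1 (0.96), Apoc2 (1.07) and Apoc4 (1.31) were higher in C2, as was Apobec1 (0.75), an RNA-editing enzyme that acts on the apolipoprotein B transcript, so 4 of 15 were called. Apoc2, the cofactor of lipoprotein lipase, had 20220 ± 4950 normalised counts in C2 and 10120 ± 2970 in C1 libraries (SD, n = 6 and 8). Of 18 PPAR and LXR genes, Pltp (1.48), a phospholipid transfer protein, and Abca1 were higher. Of 17 lipid droplet genes only Dgat2 was called, and it was lower. Dgat2, which makes triglycerides, had 1083 ± 541 in C2 and 3121 ± 424 in C1 libraries (-1.54, adjusted p = 0.000914), with every C2 library below every C1 library. Fabp3 (1.07) and Fabp4 were higher among 3 tested fatty acid carriers, Tspan32 (0.56) among 14 tetraspanins and Itgb5 (1.15), an integrin subunit that binds osteopontin, among 8 osteopontin receptors. None of 5 galectin genes was called (limma; 2 at an unadjusted p under 0.05), and the lowest p belonged to Lgals3bp (0.69) and Lgals1 (0.41).

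**Figure D4:**
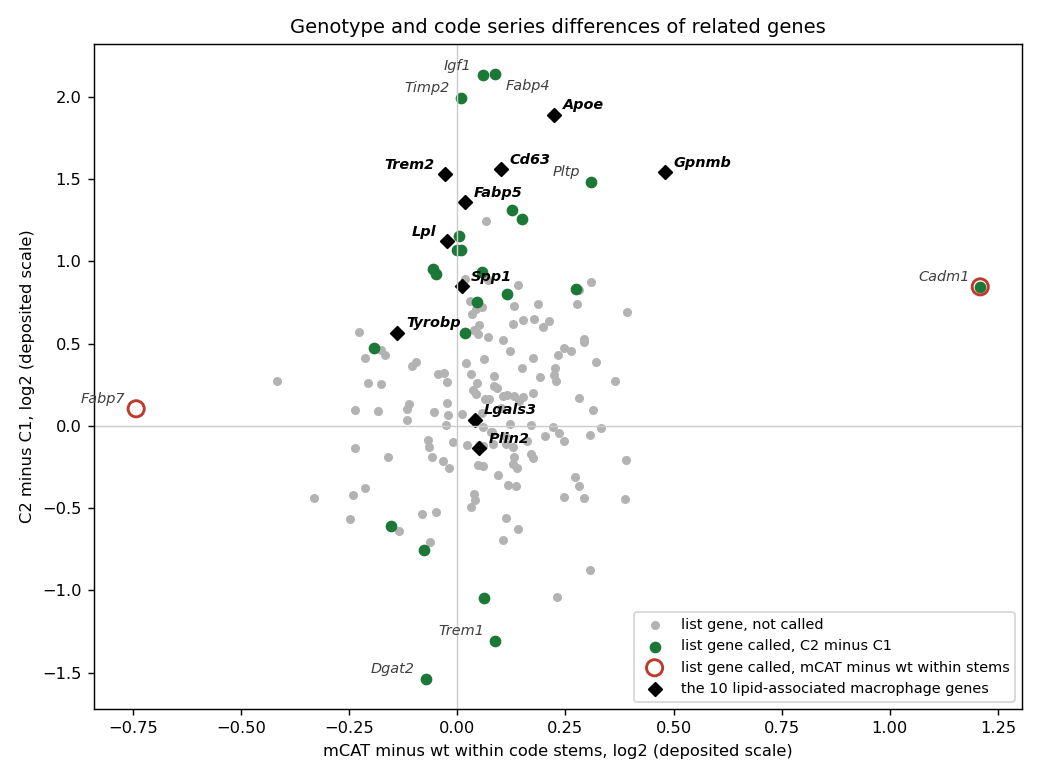
Each point is 1 gene, with its mCAT minus wt difference within stems (x axis) and its C2 minus C1 difference (y axis), both on the deposited log2 scale, for the 10 genes (diamonds) and the 165 tested list genes (circles; green where called between C2 and C1, red rings where called between genotypes). Gpnmb lies farthest to the right among the 10, and Cadm1 and Fabp7 are the list genes at the far right and left.

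Some markers of macrophages and of other cells also differed between C2 and C1. Of 10 macrophage markers, C1qa (1.07), C1qb (0.94), C1qc (1.08) and Lyz2 (1.43) were higher in C2, and the sum of the 10 was 1741000 to 4599000 normalised counts in C2 and 869400 to 1506000 in C1 libraries. Of 8 tested microglia markers, Olfml3 (2.12), Gpr34 (1.31) and Cx3cr1 (1.96) were higher, and the sum over the list was 45680 to 92990 in C2 and 19470 to 47260 in C1 libraries. The defining microglial transcript Tmem119 had 2204 to 3500 in C2 and 550 to 2008 in C1 libraries, P2ry12 1034 to 1453 in C2 and 563 to 1254 in C1 libraries, and Sall1 did not exceed 36.2. The summed classical monocyte markers were at 341000 to 813100 in C2 and 330600 to 1144000 in C1 libraries. Cxcr2 (-0.68) was the only called gene of 6 tested in the neutrophil list, and Slc1a2 (-1.45) the only one of 6 in the astrocyte list. Both were lower in C2. Cxcr2 was near the floor, at 0 to 9.37 normalised counts in C2 and 11.2 to 50.7 in C1 libraries. The median of the neutrophil list was -0.76, with 1 gene above 0. That of the astrocyte list was -0.097, with 2 genes above 0. The mitochondrially encoded share of counts was 0.904% to 1.46% in C2 and 0.402% to 2.69% in C1 libraries. The part of these markers in the differences of the 10 genes was not tested.

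Within stems, the monocyte marker Ccr2 (-0.80, adjusted p = 0.00563) was lower and the neutrophil collagenase gene Mmp8 (0.47, adjusted p = 0.0332) higher in mCAT. The mCAT donor cells were CCR2creERT2/+, so the Ccr2 locus itself differs with the genotype. The part of the engineered allele in the Ccr2 value was not tested, and this value is not a measure of monocytes alone. The summed neutrophil markers were higher in mCAT in 6 of 6 stems, at 10520 to 40210 normalised counts over mCAT and 10190 to 29140 over wt libraries. Mmp8 was the most abundant gene of that list, with means of 11060 in mCAT and 7438 in wt libraries, and the other markers of the list did not all lie on its side: S100a8 was higher in mCAT in 1 of 6 stems (-0.29, adjusted p = 0.452). The summed T cell markers were lower in mCAT in 6 of 6, at 164 to 493 over mCAT and 275 to 967 over wt libraries. The summed microglia markers were higher in mCAT in 4 of 6. The part of these cells in the Gpnmb difference was not tested.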

How the data were processed

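Polyadenylated RNA of sorted macrophages was made into libraries with Smart-seq2, which keeps no strand, and sequenced in paired reads, per the labels' protocols. The submitters' processing notes name FastQC, fastp, Salmon and build GRCm39; tool versions, annotation and filters are not stated there. Although its title speaks of raw counts, the deposited table holds log2 values with 1 shared lowest value, the form of a variance-stabilising transformation. Undoing it gave the normalised counts; fitted log2 differences stay on the deposited scale, which compresses low genes. Depth is a rough estimate from the spacing of low values. No column was without a sample.

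Genes with a normalised count of at least 10 in at least 7 libraries were tested, 12096 of 19940, and all 10 members passed. The fits used limma 3.58.1 with a variance trend and robust moderation (statmod 1.5.0, R 4.3.3), 2-sided, with Benjamini-Hochberg adjustment over all genes tested and a threshold of 0.05 for a called gene. They were mCAT minus wt over 14 libraries, the same within 6 stems (12 libraries), C2 minus C1 (correlation within stems 0.463) and the interaction of both. The fits were tested on simulated data. Deviations from the group means correlated between partners of all 6 stems (0.232 to 0.659), so the stem was taken to pair the libraries, although the labels do not say that partners share a host. The numbers in the titles were not, since 1 to 3 join other libraries (-0.294 to 0.252). The lowest stem value, 0.232 in C2_1, lay below the highest of these. The partners of C2_1 were not each other's closest library of the other genotype. Nothing says that libraries came from separate animals, so p-values measure the spread between libraries, which may be technical in part.

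The members, lists and tests were chosen with earlier results of these data known. Named genes are the 10 members, up to 4 called genes per list and fit by lowest p (otherwise the 2 of lowest p), and the 5 or 3 genes most correlated with a member. Lengths came from GENCODE M21 and promoters from RefSeq. Of the members, Plin2 had a similar copy (Gm12551, 96.1% over 259 bases), which reached 39.6 normalised counts. Alternatives changed the filter, scaling, block and the libraries used.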

Additional observations from a re-analysis of the deposited data

How the results depend on the processing

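For mCAT minus wt, no alternative called a member except the replicate block on the code stem, which called 1 member, 2 list genes and 38 genes, with Gpnmb at 0.48 and with Trem2 (-0.0287) and Lpl (-0.0228) on the other side of 0. A block on the title numbers, of which 4 to 7 join the same libraries as the stems and 1 to 3 do not, gave 25 genes and 1 list gene. The code series as a covariate gave 27 genes and 1 list gene. Genes called were 15 within C1 alone and 9 within C2 alone, where Spp1 (-0.0796), Fabp5 (-0.0376), Cd63 (-0.126), Lpl (-0.0736) and Plin2 (-0.0535) turned round. Leaving out 1 library gave 18 to 25 genes, Gpnmb 0.29 to 0.92, Trem2 -0.19 to 0.29, Spp1 -0.0468 to 0.43, Lgals3 -0.0257 to 0.13, Fabp5 -0.13 to 0.34, Cd63 -0.0433 to 0.58, Lpl -0.16 to 0.31 and Plin2 -0.00065 to 0.15. Leaving out 1 stem within stems gave 0 to 1 members, 1 to 2 list genes, 28 to 38 genes, Gpnmb 0.43 to 0.54, Trem2 -0.05998 to 0.0103, Spp1 -0.0292 to 0.0791, Fabp5 -0.0486 to 0.0937 and Lpl -0.13 to 0.0567.

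For C2 minus C1, the fit with no replicate block on the stem called 7 members, 46 list genes and 903 genes, with Gpnmb at 1.43 (adjusted p = 0.0361) and Lpl at 1.11 (adjusted p = 0.0479) gained. Quantile normalisation called 4 members, without Tyrobp (adjusted p = 0.072), with Apoe at 1.19 and Lgals3 at -0.0344. Within mCAT alone there were 3 members, 7 list genes and 81 genes called, with Lgals3 at -0.0018, and within wt alone 0, 1 and 15. Leaving out 1 library or, chosen after seeing the data, 1 stem gave 2 to 7 members, 6 to 55 list genes, 55 to 1170 genes, Gpnmb 1.20 to 2.03 and Lgals3 -0.0366 to 0.18. The cause of these shifts was not tested. With 3 C2 stems, 1 stem can decide a call.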
